A study of Mus musculus with 18 samples.

Results

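The cell cycle and DNA replication families were followed through a surgical model of knee osteoarthritis in mouse cartilage. Members were taken by name: every probe whose annotated gene symbol began with Mcm, Ccna, Ccnb, Ccnd, Ccne, Cdk, Cdc, Cenp, Aurk, Bub, Orc, Rfc, Rrm1 or Rrm2 (with a digit or letter where the family name needs one), or was *Tk1*, *Top2a*, *Pcna* or *Mki67*. The rule used no expression value. It found 180 of the 22999 probes that the authors had selected and deposited, which stood for 103 of 11499 named genes. Of these genes 46 had more than 1 probe, and a gene's value is that of its brightest probe, by the mean over all 18 arrays. *Mki67*, *Ccnb1* and *Cdkn2a* were not analysed here. Not every member is a cell cycle gene, since the choice by name also brought in others, such as the Cdc42 GTPase family. That family was kept, with other Cdc names and *Mcm3ap*, as a group of its own.

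RNA came from the medial tibial plateau cartilage of male C57Bl6/J mice that had destabilisation of the medial meniscus (DMM) in the right knee at 10 weeks of age. In this operation the ligament that anchors the medial meniscus is cut and the joint becomes unstable. The unoperated left knee of the operated mice was the control, called contralateral, and no sham-operated knee was part of the series. Cartilage was taken 2, 4 and 8 weeks after surgery, at ages of 12, 14 and 18 weeks. Each of the 6 groups had 3 arrays, and each array held RNA pooled from the knees of 8 mice and amplified before labelling. Both knees of the same mice were used, but the labels do not say which pools share mice, so groups were compared without pairing. A p-value here measures the spread between such pools. All values are log2 intensities after quantile normalisation, and a log2 fold change is the difference of 2 group means of these values. A gene was said to rise or fall only where limma gave an adjusted p under 0.05 over all 22999 probes.

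The tissue label was checked against chondrocyte markers. Of 10 listed, 8 were measured, *Acan*, *Col2a1* and *Sox9* among them, with summed intensities between 26381 and 34018 in the 18 arrays. *Chad* and *Cytl1* of this list fell at 2 weeks, and none of the 8 passed at 4 or 8 weeks. In the mean of the 3 weeks 5 of the 8 passed, with *Col2a1* higher and *Chad*, *Cytl1*, *Hapln1* and, by a dimmer probe alone, *Sox9* lower. Arrays correlated with the mean of the others in their group at 0.946 to 0.987, lowest in an 8-week contralateral array. The residual SD had a median over probes of 0.178 in the 2-week fit, 0.18 in the 4-week fit and 0.23 in the 8-week fit. Many members were dim. In all, 50 of the 103 members had a mean at or below 6.53, the median of all probes, and among the 46 genes with several probes the direction of the DMM effect was shared by all probes in only 20 at 2 weeks, 16 at 4 weeks and 19 at 8 weeks. In such bulk samples fewer cells of a type and less RNA per cell cannot be told apart.

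As background, a cell that is about to divide first loads the Mcm helicase onto origins, with the help of the Orc complex and Cdc6. D-type and E-type cyclins with their kinases then carry it past the restriction point, and CDK inhibitors hold it back. Ribonucleotide reductase, thymidine kinase, Pcna and the Rfc clamp loader serve DNA synthesis, and the Aurora kinases, the Bub checkpoint proteins and the Cenp proteins of the kinetochore serve chromosome segregation. Chondrocytes of adult articular cartilage divide rarely, whereas marrow and healing connective tissue hold many dividing cells.

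Many of these genes are known to be switched by E2F factors at a site such as TTTGGCGC, or by complexes that read a cell cycle homology region (CHR, TTTGAA) beside CCAAT boxes. RefSeq promoter windows (GRCm38.p6, 250 bases before to 30 after the start site) were matched by symbol for 88 of the 103 members. Where a gene had several windows, only the first complete one listed was searched. A site of the E2F letters TTTGGCGC, TTTCCCGC or TTTCGCGC, on either strand, lay in the windows of 11 of 88 members (12.5%) and in 1.78% of all 27025 windows. The 11 genes were *Cdc25a*, *Cdc6*, *Cdk1*, *Cdk2*, *Cenpb*, *Cenpm*, *Mcm3*, *Mcm5*, *Mcm6*, *Mcm7* and *Orc3*. The CHR letters lay in 17 of 88 members (19.3%) against 17.4% of all windows, and CCAAT in 41 of 88 (46.6%) against 36.6%. A match is a description of letters and not of binding. Windows are printed for the 4 members that passed in a single week, *Rrm2*, *Tk1*, *Mcm6* and *Cenpp*, and for *Mcm5* and *Cenpa*, which with *Rrm2* rose in operated knees from 2 to 4 weeks, because the results below turn on these genes. Each is given 5′ to 3′ on the strand of its gene, with every match to one of the 3 motifs in capitals. Where a match on one strand overlapped a match on the other, as in 1 stretch each of *Mcm6* and *Mcm5*, both were counted.
Rrm2 (chr12:24708004-24708283, plus strand): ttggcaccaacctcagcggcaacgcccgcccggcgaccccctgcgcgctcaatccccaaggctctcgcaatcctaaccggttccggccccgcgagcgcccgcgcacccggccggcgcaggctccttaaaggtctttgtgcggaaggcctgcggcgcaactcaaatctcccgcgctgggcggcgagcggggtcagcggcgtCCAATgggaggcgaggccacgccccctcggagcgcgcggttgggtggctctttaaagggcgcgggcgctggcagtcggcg
Tk1 (chr11:117825985-117826264, minus strand): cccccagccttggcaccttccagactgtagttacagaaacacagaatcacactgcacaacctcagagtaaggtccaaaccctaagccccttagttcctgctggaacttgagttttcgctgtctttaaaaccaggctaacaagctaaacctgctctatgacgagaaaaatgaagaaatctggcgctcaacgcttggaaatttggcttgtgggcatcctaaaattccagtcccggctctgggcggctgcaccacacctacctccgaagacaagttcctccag
Mcm5 (chr8:75109259-75109538, plus strand): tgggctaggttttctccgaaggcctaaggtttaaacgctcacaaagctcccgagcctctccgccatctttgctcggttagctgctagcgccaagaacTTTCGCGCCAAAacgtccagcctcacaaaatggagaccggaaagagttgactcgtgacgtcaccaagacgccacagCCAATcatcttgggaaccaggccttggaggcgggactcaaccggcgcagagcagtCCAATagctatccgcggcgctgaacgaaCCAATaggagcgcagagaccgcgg
Mcm6 (chr1:128359676-128359955, minus strand): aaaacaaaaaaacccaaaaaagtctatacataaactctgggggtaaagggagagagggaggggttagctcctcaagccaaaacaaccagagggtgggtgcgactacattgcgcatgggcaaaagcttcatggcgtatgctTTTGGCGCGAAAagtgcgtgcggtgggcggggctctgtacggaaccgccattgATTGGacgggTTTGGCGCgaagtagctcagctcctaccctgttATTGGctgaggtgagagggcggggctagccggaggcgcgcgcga
Cenpa (chr5:30666636-30666915, plus strand): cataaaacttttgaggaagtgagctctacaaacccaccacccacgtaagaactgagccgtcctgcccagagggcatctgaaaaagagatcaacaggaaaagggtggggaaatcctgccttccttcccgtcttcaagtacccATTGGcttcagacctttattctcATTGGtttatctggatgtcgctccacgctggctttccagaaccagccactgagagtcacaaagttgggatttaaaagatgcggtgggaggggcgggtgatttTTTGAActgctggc
Cenpp (chr13:49652702-49652981, minus strand): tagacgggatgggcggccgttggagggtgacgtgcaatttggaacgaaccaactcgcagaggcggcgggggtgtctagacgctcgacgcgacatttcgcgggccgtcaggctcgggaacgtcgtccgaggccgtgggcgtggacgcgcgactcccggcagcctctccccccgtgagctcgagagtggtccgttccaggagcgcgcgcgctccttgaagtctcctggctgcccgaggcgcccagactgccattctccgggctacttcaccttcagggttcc
*Mcm6* held 3 E2F matches and 2 CCAAT boxes, and *Mcm5* held 2 E2F matches and 3 CCAAT boxes. *Cenpa* held 1 CHR and 2 CCAAT boxes and *Rrm2* 1 CCAAT box, while none of these letters were in the windows of *Tk1* and *Cenpp*. Any other start sites of these genes were not searched.

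Across the members the effect of surgery was small and went both ways. At 2 weeks 3 of the 103 genes passed the test in any direction, against 8.64% of all genes. *Rrm2* rose (4.89% of all genes did), and *Mcm6* and *Cenpp* fell (3.77%). At 4 weeks 2 passed, against 0.939% of all genes. *Tk1* rose (0.504%) and *Cenpp* fell (0.435%). At 8 weeks none passed by limma, nor did any other gene (0%). There 15 of the 180 member probes had an unadjusted p under 0.05, as did 1993 of all 22999 probes. Members above 0 numbered 56 of 103 (all genes, 52.4%), 68 (51%) and 45 (51.1%) at 2, 4 and 8 weeks. Their median log2 fold changes in these weeks were 0.02, 0.08 and -0.04, and the medians of all genes lay at 0.01, 0.00 and 0.01. The DMM and contralateral values did not overlap in 11 members higher and 10 lower at 2 weeks (all genes, 15.5% and 12.3%), in 15 higher and 4 lower at 4 weeks (10.6% and 8.88%) and in 7 higher and 11 lower at 8 weeks (7.98% and 7.06%).

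**Figure D1:**
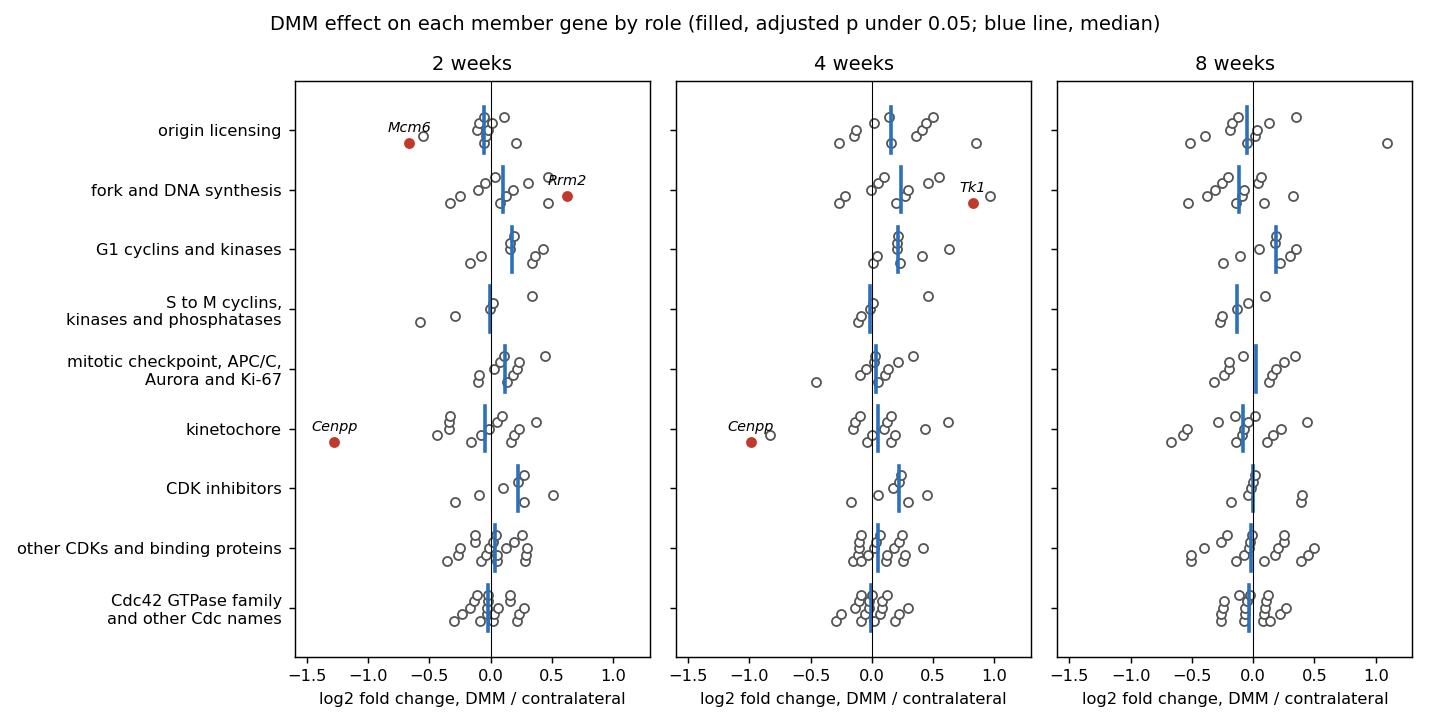
Log2 fold change (DMM over contralateral) of each of the 103 member genes at 2, 4 and 8 weeks, one point a gene by its brightest probe, in 9 role groups. Filled points passed the test, which were *Rrm2*, *Mcm6* and *Cenpp* at 2 weeks and *Tk1* and *Cenpp* at 4 weeks, and the blue lines mark the median of each group.

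Among the 12 genes of the fork and of DNA synthesis, *Rrm2*, the regulated small subunit of ribonucleotide reductase, moved most. Its 2-week values were 6.85, 6.57 and 6.79 in contralateral and 7.45, 7.26 and 7.38 in DMM cartilage. At 4 weeks they were 7.50, 7.14 and 7.92 in contralateral and 8.51, 8.21 and 8.72 in DMM arrays. DMM lay above contralateral without overlap at both times. At 8 weeks the values were 6.94, 6.60 and 7.53 against 7.31, 6.89 and 6.58, and the groups overlapped fully. The log2 fold change was 0.62 ± 0.14 (SE, n = 3 a group, adjusted p = 0.0216) at 2 weeks, 0.96 ± 0.20 (adjusted p = 0.0603) at 4 weeks and -0.09 ± 0.27 at 8 weeks. The second probe gave 0.49 ± 0.13 (adjusted p = 0.0438), 0.94 ± 0.20 (adjusted p = 0.0649) and -0.04 ± 0.32. The 2-week call of the brighter probe ended without DMM replicate 1, 2 or 3 (adjusted p = 0.0873, 0.0678 and 0.106), and in 1 fit of all 18 arrays (0.135). The 4-week value passed without contralateral replicate 3 (adjusted p = 0.0296), with variances fitted robustly against intensity (0.0296) and with the replicate number as a block (0.0147).

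Within the operated knees *Rrm2* rose by 1.12 ± 0.14 from 2 to 4 weeks (adjusted p = 0.00073) and fell by 1.55 ± 0.21 from 4 to 8 weeks (adjusted p = 0.0443). These 2 comparisons share the 4-week arrays. The rise kept its call with each of the 6 arrays left out in turn. The fall lost it without 4-week replicate 1, 2 or 3 (adjusted p = 0.314, 0.0828 and 0.247) or 8-week replicate 2 or 3 (0.11 and 0.0781), with a replicate block (0.137) and with the mean of both probes (0.0834). The contralateral knees gave 0.78 ± 0.20 from 2 to 4 weeks, which did not pass (adjusted p = 0.301) although the 2 groups did not overlap. The DMM effect itself was not shown to differ between weeks, with a change of -1.06 ± 0.33 from 4 to 8 weeks (adjusted p = 0.497). Its large partner *Rrm1* gave 0.47 ± 0.15 at 2 weeks (adjusted p = 0.0946), 0.46 ± 0.14 at 4 weeks (adjusted p = 0.182) and 0.06 ± 0.18 at 8 weeks. The dimmer of the 2 *Rrm1* probes went the other way at 4 weeks.

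*Tk1*, the thymidine salvage kinase made in S phase, read 5.38, 5.55 and 5.24 in the 4-week contralateral arrays and 6.17, 6.22 and 6.24 in the DMM arrays. The DMM values lay above all contralateral ones. The only *Tk1* probe is dim, with a mean over the 18 arrays at or below the median of all probes (6.53). The log2 fold change was 0.82 ± 0.14 (adjusted p = 0.0211), beside 0.18 ± 0.13 at 2 weeks and 0.09 ± 0.21 at 8 weeks. Leaving out contralateral replicate 1 or 3 ended this call (adjusted p = 0.0744 and 0.0596), as did leaving out DMM replicate 2 or 3 (0.0877 and 0.103). *Top2a*, the topoisomerase that frees replicated chromosomes, read 5.49, 5.64 and 5.59 in contralateral and 6.28, 5.90 and 5.95 in DMM arrays at 2 weeks. The groups did not overlap, and 0.47 ± 0.14 did not pass (adjusted p = 0.0784). It gave 0.55 ± 0.20 at 4 weeks (adjusted p = 0.254), where values overlapped, and -0.14 ± 0.32 at 8 weeks. *Pcna*, the sliding clamp, stayed between 7.20 and 8.10 in all 18 arrays and gave 0.04, 0.27 and -0.20.

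*Rrm2b*, the reductase subunit that supplies nucleotides outside S phase and after DNA damage, lay on the other side. It read 7.40, 7.35 and 7.74 in contralateral and 7.19, 7.24 and 7.08 in DMM arrays at 2 weeks, and 8.02, 8.14 and 7.96 against 7.49, 7.43 and 7.62 at 8 weeks. DMM was lower without overlap at both times, and no single week passed (-0.33, -0.27 and -0.53). Over the mean of the 3 weekly contrasts it fell by 0.38 ± 0.08 (adjusted p = 0.0052) and kept that call with each of the 18 arrays left out. Over the 2- and 4-week contrasts alone it gave -0.30, which did not pass (adjusted p = 0.0765). Its other 2 probes gave -0.23 (adjusted p = 0.0518) and -0.20 (0.211) over the 3 weeks. The clamp loader genes *Rfc1*, *Rfc2*, *Rfc4* and *Rfc5* gave values from -0.38 to 0.32 by their brightest probes in the 3 weeks, none of which passed. The replication kinase gene *Cdc7* and *Cdc45*, a part of the active helicase, did not pass in any week either.

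**Figure D2:**
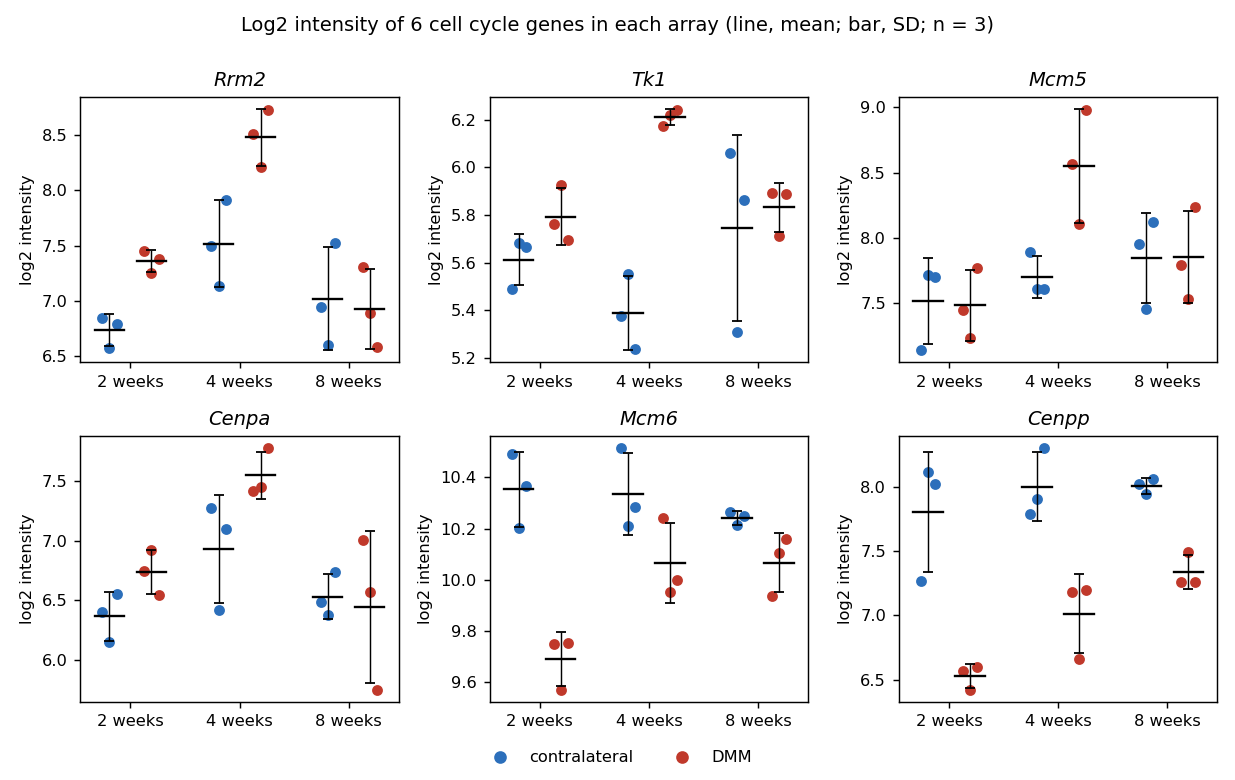
Log2 intensity of *Rrm2*, *Tk1*, *Mcm5*, *Cenpa*, *Mcm6* and *Cenpp* in each array at 2, 4 and 8 weeks, contralateral in blue and DMM in red, with the mean and SD of each group (n = 3). *Rrm2* DMM values were 8.21 to 8.72 at 4 weeks, and *Cenpp* DMM values lay below all contralateral ones in every week.

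The 11 origin licensing members did not move together. *Mcm6*, one of the 6 subunits of the Mcm helicase ring, read 10.49, 10.20 and 10.37 in contralateral and 9.75, 9.57 and 9.75 in DMM arrays at 2 weeks. The groups were far apart, and *Mcm6* fell by 0.66 ± 0.14 (adjusted p = 0.0168). At 4 weeks it read 10.52, 10.21 and 10.28 against 10.24, 9.95 and 10.00, which overlapped (-0.27 ± 0.14, adjusted p = 0.474). At 8 weeks it read 10.27, 10.21 and 10.25 against 9.94, 10.11 and 10.16, again with DMM below contralateral, and -0.18 ± 0.14 did not pass (adjusted p = 0.77). Its call at 2 weeks ended without DMM replicate 1, 2 or 3 (adjusted p = 0.0531, 0.0929 and 0.0716). The 3 other *Mcm6* probes gave -0.64 ± 0.15 (adjusted p = 0.0287), -0.36 ± 0.17 and -0.31 ± 0.17 at 2 weeks. At 8 weeks 1 of them turned to 0.45 ± 0.32. Another gave -0.51 ± 0.16, lower in DMM without overlap (adjusted p = 0.45), and the last gave -0.12 ± 0.19. Over the mean of the 3 weeks *Mcm6* fell by 0.37 ± 0.08 (adjusted p = 0.00368), and no single array ended that call.

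The other subunits of the same ring gave other values. *Mcm5* read 7.89, 7.61 and 7.61 in contralateral and 8.56, 8.11 and 8.98 in DMM arrays at 4 weeks. DMM was higher without overlap, but 0.85 ± 0.20 did not pass (adjusted p = 0.0858), with -0.03 ± 0.19 at 2 weeks and 0.01 ± 0.24 at 8 weeks. The 4-week value passed without DMM replicate 2 (adjusted p = 0.047) and with variances fitted robustly against intensity (0.0486). Within operated knees *Mcm5* rose by 1.07 ± 0.20 from 2 to 4 weeks (adjusted p = 0.0133), a call that ended without 2-week replicate 1 or 2 (adjusted p = 0.0618 and 0.0699). *Mcm3* read 5.83, 5.81 and 5.69 in contralateral and 6.82, 6.73 and 7.06 in DMM arrays at 8 weeks. This was the largest member difference of that week (1.09 ± 0.16) and the smallest member adjusted p (0.225). It followed -0.02 ± 0.18 at 2 weeks and 0.50 ± 0.18 at 4 weeks, and the change from 2 to 8 weeks was 1.11 ± 0.26 (adjusted p = 0.178). In 1 fit of all 18 arrays the 8-week *Mcm3* difference passed (adjusted p = 0.0135). Over the mean of the 3 weeks it rose by 0.52 ± 0.11 (adjusted p = 0.00375). With the 8-week arrays left out, the mean of 2 and 4 weeks was 0.24 (adjusted p = 0.301).

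*Mcm4* gave 0.21 ± 0.13, 0.41 ± 0.16 and 0.35 ± 0.21 in the 3 weeks, none past the test, and rose by 0.32 ± 0.10 over their mean (adjusted p = 0.043). That call ended in 15 of the 18 fits that left out 1 array, and the mean of its 3 probes gave 0.15 (adjusted p = 0.248). *Mcm7* gave 0.01, 0.36 and 0.03, and *Mcm2* gave 0.11, 0.44 and -0.52. *Orc4*, a subunit of the origin recognition complex, read 8.00, 7.61 and 8.14 in contralateral and 7.23, 7.62 and 7.23 in DMM arrays at 2 weeks (-0.56 ± 0.17, adjusted p = 0.0845). This passed without contralateral replicate 2 (adjusted p = 0.0176) and with array weights (0.0327). *Orc4* fell by 0.37 ± 0.10 over the mean of the 3 weeks (adjusted p = 0.0244), with 5 of 18 single arrays ending the call. It ended too with a replicate block (0.0522), over the 2- and 4-week contrasts alone (0.0773) and with the mean of its 4 probes, where the fall was smaller (-0.18, adjusted p = 0.0942). *Orc3*, *Orc5*, *Orc6* and *Cdc6* did not pass in any week.

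All 8 G1 cyclins and kinases were above 0 at 4 weeks by their brightest probes, with a median of 0.21, but none passed in any week. *Ccnd1*, *Ccnd2*, *Ccnd3* and *Cdk2* had several probes, and in each of these genes the probes differed in direction at 4 weeks. The *Ccnd1* probes differed in direction at 2 weeks too. *Ccnd1*, the cyclin induced by growth factors, read 9.19, 8.98 and 8.94 in contralateral and 9.45, 9.34 and 9.61 in DMM arrays at 2 weeks. The groups did not overlap, and 0.43 ± 0.14 did not pass (adjusted p = 0.0932). *Cdk2*, the kinase of S phase entry, read 8.24, 7.71 and 8.28 in contralateral and 8.66, 8.52 and 8.95 in DMM arrays at 4 weeks. Again DMM was higher without overlap, and 0.63 ± 0.18 did not pass (adjusted p = 0.145). *Cdk4*, the partner of D-type cyclins, gave 0.19, 0.41 and 0.22. It rose by 0.27 ± 0.08 over the mean of the 3 weeks (adjusted p = 0.0445), and 12 of 18 single arrays ended that call. *Cdk6* read 7.64 in 1 DMM array at 8 weeks and between 5.85 and 6.68 in the other 17 arrays, and *Ccnd2*, *Ccnd3*, *Ccne2* and the phosphatase gene *Cdc25a* did not pass in any week.

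The 5 cyclin, kinase and phosphatase genes of S phase to mitosis had medians near 0 at 2 and 4 weeks. *Ccna2*, the S phase and G2 cyclin, read 6.07, 6.22 and 5.59 in contralateral and 6.27, 6.12 and 6.85 in DMM arrays at 4 weeks, and the groups overlapped (0.46 ± 0.21, adjusted p = 0.394). *Cdk1*, the mitotic kinase, read 7.37, 7.30 and 6.76 in contralateral and 6.72, 6.52 and 6.47 in DMM arrays at 2 weeks. DMM was lower without overlap, and -0.57 ± 0.17 did not pass (adjusted p = 0.0756). It passed without contralateral replicate 3 (adjusted p = 0.0187). The second *Cdk1* probe gave -0.02 ± 0.15. The mean of the 3 weeks for the brighter probe was -0.31 (adjusted p = 0.0504), which passed with brighter probes only (0.03), with a replicate block (0.0429) and without contralateral 2-week replicate 3 (0.0116) or 8-week replicate 1 or 3 (0.0413 and 0.0416). Of the 10 genes of the spindle checkpoint, the anaphase-promoting complex and the Aurora kinases, none passed in a single week. *Aurkb*, the kinase that corrects kinetochore attachments, gave 0.45 ± 0.18 at 2 weeks (adjusted p = 0.178) and 0.05 ± 0.20 at 4 weeks, and *Aurka*, the centrosome kinase, gave 0.13, 0.34 and -0.32. The checkpoint kinase gene *Bub1* read 6.20 in 1 DMM array at 8 weeks and between 4.72 and 5.48 in the other 17 arrays. *Cdc20*, the activator of the anaphase-promoting complex, rose by 0.35 ± 0.08 over the mean of the 3 weeks by its dimmer probe (adjusted p = 0.00692), and that probe was higher in DMM without overlap at each of the 3 weeks. Its brighter probe gave 0.03 ± 0.11. The phosphatase gene *Cdc14b* gave the highest value of the S to M group at 2 weeks (0.33 ± 0.22), *Cdc14a* the lowest at 4 weeks (-0.11 ± 0.15) and *Cdc25c*, which activates Cdk1, the highest at 8 weeks (0.10 ± 0.17). Of the checkpoint group, *Bub3* was lowest at 2 weeks (-0.10 ± 0.18) and *Cdc23*, a subunit of the anaphase-promoting complex, at 4 weeks (-0.45 ± 0.18, adjusted p = 0.326).

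The kinetochore group was formed by name and held all 14 Cenp genes, not each of which need be a kinetochore subunit. Of these only *Cenpp* passed between knees, and *Cenpa* passed between weeks of operated knees. *Cenpa*, the histone H3 variant that marks centromeres, read 7.28, 6.42 and 7.10 in contralateral and 7.42, 7.45 and 7.78 in DMM arrays at 4 weeks. DMM was higher without overlap (0.62 ± 0.21, adjusted p = 0.22). Within operated knees it rose by 0.81 ± 0.14 from 2 to 4 weeks (adjusted p = 0.00811), a call that ended without 2-week replicate 3 (adjusted p = 0.0601) and in 1 fit of all 18 arrays (0.222). The dimmer of its 2 probes gave 0.04 ± 0.16 in that comparison, and their mean gave 0.43, which did not pass (adjusted p = 0.158). At 8 weeks the DMM arrays spread from 5.75 to 7.01. Between knees at 4 weeks the dimmer probe gave -0.01 ± 0.17.

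*Cenpp*, a subunit of the inner kinetochore, read 7.27, 8.12 and 8.02 in contralateral and 6.56, 6.42 and 6.60 in DMM arrays at 2 weeks. At 4 weeks it read 7.79, 7.91 and 8.30 against 7.18, 6.66 and 7.20, and at 8 weeks 8.02, 7.94 and 8.06 against 7.26, 7.49 and 7.26. DMM lay below contralateral without overlap in all 3 weeks, which by brightest probes no other member did in one direction, and 260 genes did in all (2.26%). *Cenpp* fell by 1.28 ± 0.20 at 2 weeks (adjusted p = 0.00589) and by 0.99 ± 0.19 at 4 weeks (adjusted p = 0.0416). The 8-week difference was -0.67 ± 0.15 (adjusted p = 0.388). The 2-week call held with each array left out, and the 4-week call ended with any 1 of the 6 arrays left out, from contralateral replicate 1 to DMM replicate 3 (adjusted p = 0.0536 to 0.13). Over the mean of the 3 weeks it fell by 0.98 ± 0.12 (adjusted p = 4.06e-05). Within operated knees it rose by 0.81 ± 0.13 from 2 to 8 weeks (adjusted p = 0.0383), a call that ended without 2-week replicate 1, 2 or 3 (adjusted p = 0.135, 0.248 and 0.184) or 8-week replicate 2 (0.0763), in 1 fit of all 18 arrays (0.0644) and with a replicate block (0.0831).

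The fall rested on 1 of 3 *Cenpp* probes. The other 2 were dimmer, did not pass in any week, and gave -0.24, 0.15 and -0.50 and -0.37, -0.46 and -0.22 at 2, 4 and 8 weeks. The mean of all 3 probes fell by 0.63 at 2 weeks (adjusted p = 0.0399) and gave -0.43 at 4 weeks (adjusted p = 0.119). The rise in operated knees from 2 to 8 weeks was likewise that of 1 probe. The other 2 gave -0.05 and 0.07, and the mean of all 3 gave 0.27 (adjusted p = 0.435). *Cenpp* spans chr13:49464025-49652950 (GRCm38.p6), and 5 other genes overlap that span: *Ippk*, *Ecm2*, *Aspn*, *Omd* and *Ogn*. The last 4 encode small leucine-rich or related matrix proteins of skeletal tissue. *Omd*, osteomodulin, fell by 1.20 ± 0.20 at 2 weeks (adjusted p = 0.00726) and gave -0.26 and -0.02 later. *Aspn*, asporin, rose by 1.35 ± 0.29 at 2 weeks (adjusted p = 0.0197) and gave 0.69 and 1.13 later. *Ecm2*, *Ogn* and *Ippk* did not pass in any week. Where the called probe lies within this span was not tested.

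**Figure D3:**
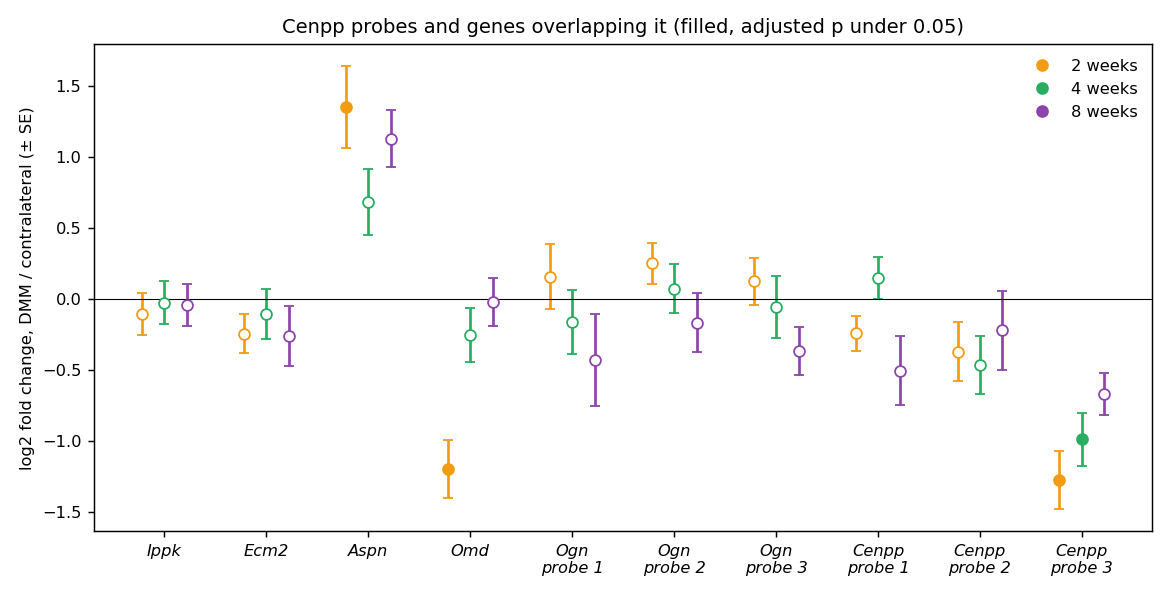
Log2 fold change (DMM over contralateral, ± SE) at 2, 4 and 8 weeks for the 3 *Cenpp* probes and for each probe of the 5 genes whose span overlaps *Cenpp*. Filled points passed the test. *Cenpp* probe 3 was at -1.28, -0.99 and -0.67, *Omd* fell at 2 weeks and *Aspn* lay above 0 in all 3 weeks.

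The 12 other Cenp genes did not pass in any week. At 2 weeks *Cenpm*, *Cenpj* and *Cenpq* were lower in DMM without overlap (-0.43, -0.34 and -0.34), and *Cenpf*, the large protein of the outer kinetochore, was higher without overlap (0.23 ± 0.13). At 4 weeks *Cenpx* was lower without overlap (-0.84 ± 0.23, adjusted p = 0.129) and *Cenpk* higher (0.43 ± 0.16, adjusted p = 0.274). The dimmer of the 2 *Cenpx* probes went the other way at 4 weeks. At 8 weeks *Cenpb*, which binds centromeric repeats, was lower without overlap (-0.58 ± 0.19, adjusted p = 0.485), as was *Cenpq* (-0.15 ± 0.14). *Cenpm*, lower at 2 weeks, was higher without overlap at 8 weeks (0.44 ± 0.17, adjusted p = 0.54).

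The CDK inhibitors gave 1 gene that passed in a comparison of the operated knees over time. *Cdkn1c*, an inhibitor linked to growth arrest and to cartilage maturation, read 8.38, 8.50 and 8.66 in contralateral and 9.14, 8.80 and 9.12 in DMM arrays at 2 weeks. DMM was higher without overlap, and 0.51 ± 0.15 did not pass (adjusted p = 0.0634). It passed with variances fitted robustly against intensity (adjusted p = 0.043) and with brighter probes only (0.0417). Within operated knees it fell by 0.72 ± 0.14 from 2 to 4 weeks (adjusted p = 0.0178). The call ended without 2-week replicate 1 or 3 (adjusted p = 0.0822 and 0.104) or 4-week replicate 1 or 3 (0.0563 and 0.0599), and in 1 fit of all 18 arrays (0.138). The contralateral knees also stood lower later, at 8.08, 8.25 and 7.87 at 4 weeks and 7.33, 7.79 and 8.16 at 8 weeks. Over the mean of the 3 weeks *Cdkn1c* rose by 0.38 ± 0.12 with surgery (adjusted p = 0.0479) and *Cdkn2b*, an inhibitor of Cdk4 and Cdk6, by 0.28 ± 0.08 (adjusted p = 0.0256). Of 18 single arrays, 13 ended the first call and 5 the second, which also ended with a replicate block (0.062) and over the 2- and 4-week contrasts alone (0.158). *Cdkn2c*, of the same family, rose by 0.42 ± 0.11 by its dimmer probe (adjusted p = 0.0181) and gave -0.03 ± 0.09 by its brighter one. *Cdkn1a*, the inhibitor that stress induces, gave 0.23, 0.05 and -0.05, and *Cdkn1b* -0.09, -0.17 and -0.18, none of which passed. *Cdkn3*, a phosphatase that acts on Cdk2 and is made in dividing cells, was higher in DMM without overlap at 4 weeks (0.45 ± 0.15, adjusted p = 0.199).

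The 18 other CDKs and CDK-binding proteins and the 18 genes of the Cdc42 family and other Cdc names had medians between -0.04 and 0.05 in the 3 weeks, and none passed in a single week. *Cdk8*, a kinase of the Mediator complex, fell by 0.26 ± 0.08 over the mean of the 3 weeks (adjusted p = 0.0484), and 14 of 18 single arrays ended that call. The mean of its 3 probes gave -0.13 (adjusted p = 0.209). A dimmer probe of *Cdk14*, a kinase that works with cyclin Y, fell by 0.73 ± 0.16 from 2 to 4 weeks in operated knees (adjusted p = 0.0303). Its call ended without 2-week replicate 1 or 2 (adjusted p = 0.124 and 0.147) or 4-week replicate 2 or 3 (0.0709 and 0.0975), and in 1 fit of all 18 arrays (0.0727). *Cdc42* itself, a GTPase of the cytoskeleton, gave 0.23, 0.08 and 0.09. Among the other CDKs the widest values at 2 weeks were those of *Cdk16* (0.30 ± 0.13) and *Cdk10* (-0.35 ± 0.14), both without overlap between the groups. At 4 weeks they were those of *Cdk5r1*, the neuronal activator of Cdk5 (0.42 ± 0.19), and *Cdkn2aipnl* (-0.15 ± 0.13). At 8 weeks they were those of *Cdk9*, a kinase of transcription elongation (0.49 ± 0.23), and *Cdk2ap2* (-0.51 ± 0.29). In the Cdc42 group they were *Cdc5l*, a splicing factor (0.27 ± 0.14), and *Cdc73*, of the Paf1 complex (-0.30 ± 0.17), at 2 weeks. They were *Mcm3ap* (0.29 ± 0.17) and *Cdc37l1* (-0.30 ± 0.15) at 4 weeks and *Cdc42bpb* (0.27 ± 0.30) and *Cdc42se1* (-0.26 ± 0.21) at 8 weeks. None of them passed the test.

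Over the mean of the 3 weekly contrasts 15 members passed, against 13% of all genes, with 10 higher (7.02%) and 5 lower (6.04%). *Mcm3*, *Mcm4*, *Rrm1*, *Rrm2*, *Tk1*, *Cdk4*, *Cdkn1c*, *Cdkn2b*, *Cdkn2c* and *Cdc20* were higher, and *Cenpp*, *Mcm6*, *Orc4*, *Rrm2b* and *Cdk8* lower. *Rrm1* rose by 0.33 ± 0.09 (adjusted p = 0.0224), and 3 of 18 single arrays ended that call, as did the mean of its 2 probes (0.24, adjusted p = 0.15). *Rrm2* rose by 0.50 ± 0.13 (adjusted p = 0.0217), and its call ended without 4-week DMM replicate 3 (adjusted p = 0.0538) or 4-week contralateral replicate 2 (0.0501). *Tk1* rose by 0.36 ± 0.09 (adjusted p = 0.0158), with no single array ending the call. Between weeks, operated knees gave 5 members from 2 to 4 weeks against 3.59% of all genes. *Rrm2*, *Mcm5* and *Cenpa* were higher (2.46% of all genes) and *Cdkn1c* and *Cdk14* lower (1.13%). From 2 to 8 weeks *Cenpp* alone of the members passed, against 0.896% of all genes (0.304% higher and 0.591% lower). From 4 to 8 weeks *Rrm2* alone passed, against 0.0783% (0.0087% higher and 0.0696% lower). Contralateral knees gave none from 2 to 4 weeks (0.191% of all genes), 2 to 8 or 4 to 8 weeks (0% each) by limma. In these comparisons 16, 16 and 13 of 180 member probes had an unadjusted p under 0.05, beside 1686, 1660 and 1689 of all 22999. No change of the DMM effect between weeks passed for any member or other gene (0% each). From 2 to 4, 2 to 8 and 4 to 8 weeks, unadjusted p was under 0.05 in 6, 15 and 21 of 180 member probes. The same held for 1250, 2419 and 1742 of all 22999 probes.

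The 4-week operated knees held the peak of many members. Of the 52 genes of licensing, DNA synthesis, S to M control, checkpoint and kinetochore, 25 (48.1%) had their highest value of all 18 arrays in a 4-week DMM array, against 11.6% of all genes. Replicate 3 held 15 of these, replicate 1 held 8 and replicate 2 held 2. The other groups held 2 to 10 each. The difference from contralateral was less one-sided: 34 of 52 (65.4%) were above 0 at 4 weeks, against 51% of all genes, and 20 of 52 (38.5%) at 8 weeks, against 51.1%. At an unadjusted p under 0.05, 10 of the 52 (19.2%) were higher at 4 weeks, against 8.57% of all genes. Cell cycle genes outside the name rule were counted from a separate list, of which 65 of 87 were measured. At 2 weeks 3 rose (4.89% of all genes did) and 2 fell (3.77%). *Stmn1*, a regulator of microtubules, rose by 0.75 ± 0.12 (adjusted p = 0.00663), and *Rpa2*, a subunit of the single-strand binding complex, fell by 0.87 ± 0.18 (adjusted p = 0.0198). *Stmn1* gave 0.88 ± 0.18 at 4 weeks (adjusted p = 0.0546). At 4 weeks none of the list passed by limma (0.939% of all genes did). At an unadjusted p under 0.05, 24 were higher (8.57% of all genes) and 2 lower. Of its 65 genes, 54 were above 0 (51% of all genes), with a median of 0.29. At 8 weeks none passed (0%), and 26 were above 0 (51.1%). There 2 were higher and 2 lower at an unadjusted p under 0.05, beside 1993 of all 22999 probes in either direction. *Rrm2*, *Mcm5* and *Cenpa* rose in operated knees from 2 to 4 weeks. In that comparison 14 of the 65 rose (2.46% of all genes) and none fell (1.13%). *Birc5*, *Plk1*, *Kif11* and *Uhrf1*, genes of mitosis and of DNA methylation upkeep, were among the 14, and the median of the list was 0.33.

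**Figure D4:**
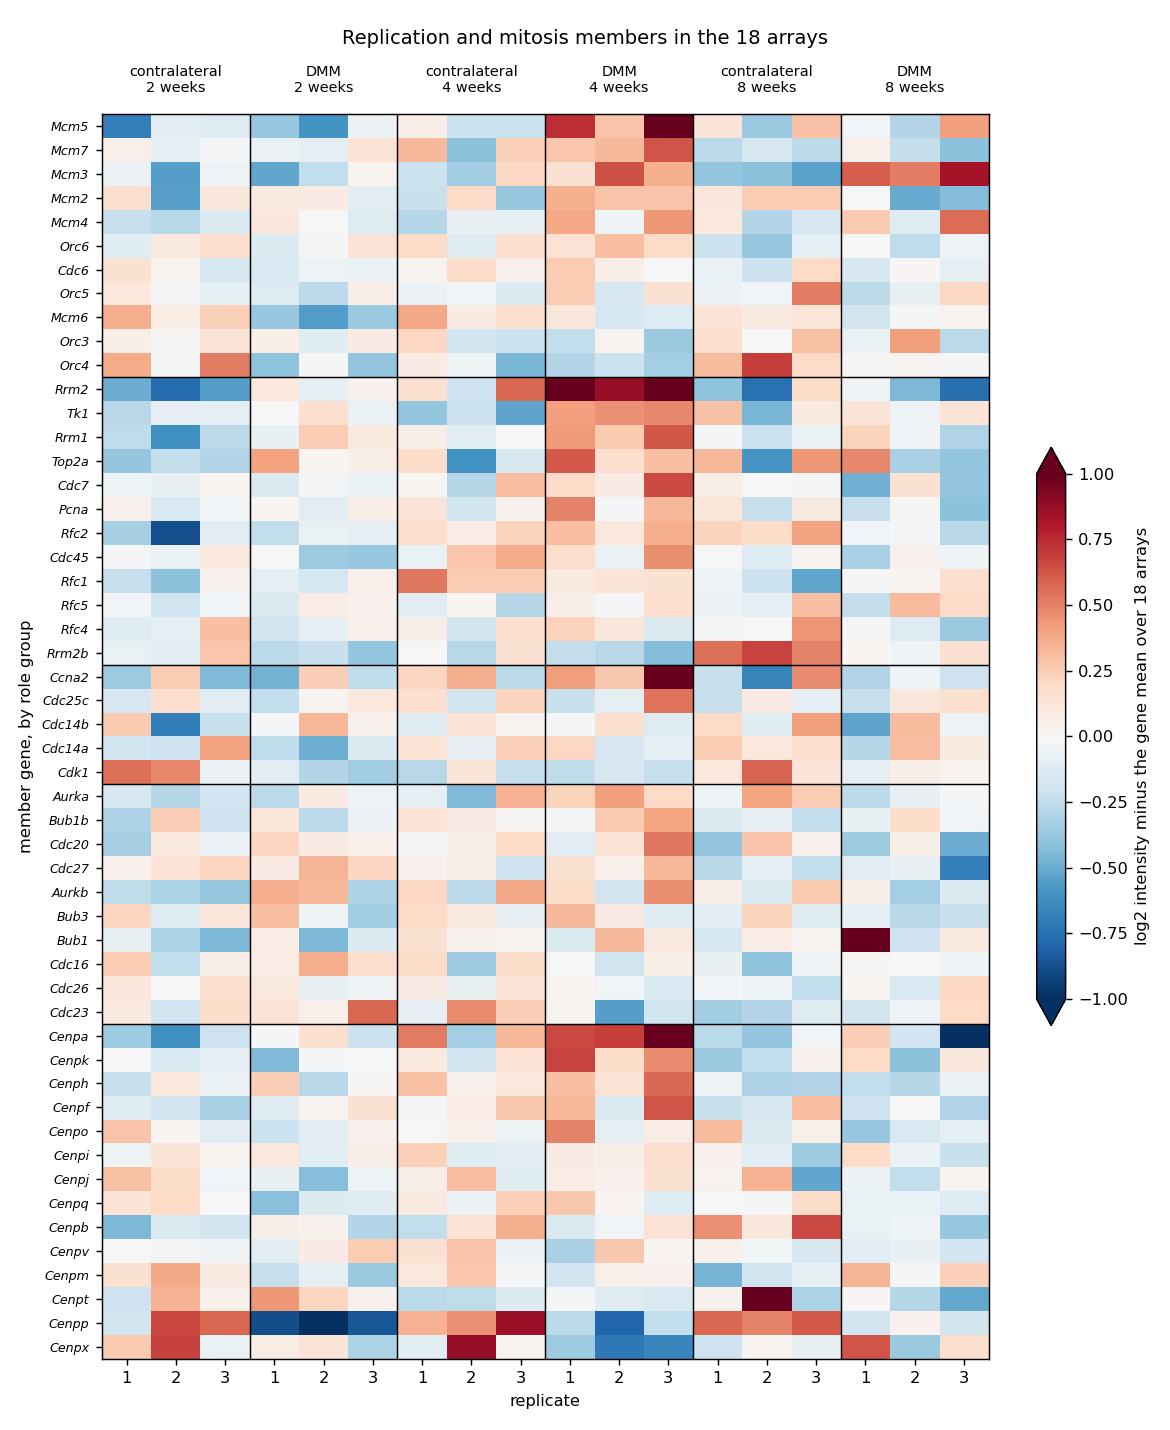
Log2 intensity of the 52 replication and mitosis members (rows, in 5 role groups divided by lines) minus the gene's mean over 18 arrays, with arrays in columns by group and replicate. Red is above and blue below that mean. The 4-week DMM columns hold the highest value of 25 of the 52 rows, 15 of them in replicate 3, and the *Cenpp* row is blue in the 2-week and 4-week DMM arrays.

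Marker lists of other cell types moved beside these values. For granulocyte precursors, the dividing marrow cells that make *Mpo* and *Elane*, 6 genes were measured from 7 listed symbols. Their summed intensity was 473 to 565 in contralateral and 337 to 432 in DMM arrays at 2 weeks. At 4 weeks it was 754 to 1047 against 1677 to 1972. All 6 genes were above 0 at 4 weeks and *Mpo* rose by 1.26 ± 0.16 (adjusted p = 0.00524), whereas it gave -0.73 at 2 weeks. At 8 weeks the sums were 925, 355 and 1505 in contralateral and 2117, 979 and 352 in DMM replicates 1, 2 and 3. In both 8-week groups the arrays stood in the same order for these sums as for *Rrm2*, while at 2 weeks *Rrm2* was higher and the sums lower in DMM. Their part in the *Rrm2*, *Tk1*, *Mcm5* and *Cenpa* values at 4 weeks was not tested.

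Late neutrophil markers (9 of 9 measured) summed to 5530 to 8702 in contralateral and 9534 to 11107 in DMM arrays at 4 weeks, with 9 of 9 above 0 and *Lcn2* passing the test. Erythroid markers (9 of 14 measured) summed to 2630 to 4767 against 4204 to 5203, with 8 of 9 above 0 and none passing. At 2 weeks 1 of 9 erythroid genes was above 0, and *Car2* and *Hbb-b2* fell. Fibroblast and synovial markers (9 of 10 measured) rose in 8 of 9 genes at 2 weeks and 4 of 9 at 4 weeks, with sums of 6714 to 12856 against 19869 to 21908 at 2 weeks. Macrophage markers (7 genes measured) rose in 2 of 7 at 2 weeks and 1 of 7 at 4 weeks. Their list had 9 symbols, of which *Emr1* and *Adgre1* name 1 gene. Contractile muscle markers fell in 8 of 8 at 2 weeks and 7 of 8 at 4 weeks. Endothelial markers (5 of 6 measured) were all above 0 at 2 weeks, where *Tek* rose and the sums were 358 to 564 against 560 to 675. Osteoclast markers (4 of 6 measured) summed to 350 to 385 against 592 to 700 at 2 weeks, where *Ctsk* rose. Of 7 osteoblast and osteocyte markers measured, *Sost* fell at 2 weeks, and the 3 B cell markers measured were above 0 at 4 weeks with none passing. Of 5 adipocyte markers measured, *Cidec* and *Pck1* fell at 2 weeks. Whether these cells carried the 2-week values of *Rrm2*, *Mcm6* and *Cenpp* was not tested. No marker can be at 0 on this scale, whose lowest value in any array was 4.62.

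From 2 to 4 weeks in operated knees, where *Rrm2*, *Mcm5* and *Cenpa* rose, 8 of 9 late neutrophil, 5 of 6 granulocyte precursor, 6 of 9 erythroid and 7 of 8 contractile muscle markers rose too. In the same comparison 3 of 9 fibroblast and synovial markers fell. In contralateral knees 4 of 9 late neutrophil, 1 of 6 granulocyte precursor and 3 of 8 contractile muscle markers rose over these weeks, and no erythroid marker did. From 4 to 8 weeks in operated knees, where *Rrm2* fell, 3 of 9 erythroid markers fell. No granulocyte precursor or late neutrophil marker passed limma's adjusted test there, although 8 of the 9 late neutrophil markers were lower at an unadjusted p under 0.05. The part of these cells in the member values was not tested.

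**Figure D5:**
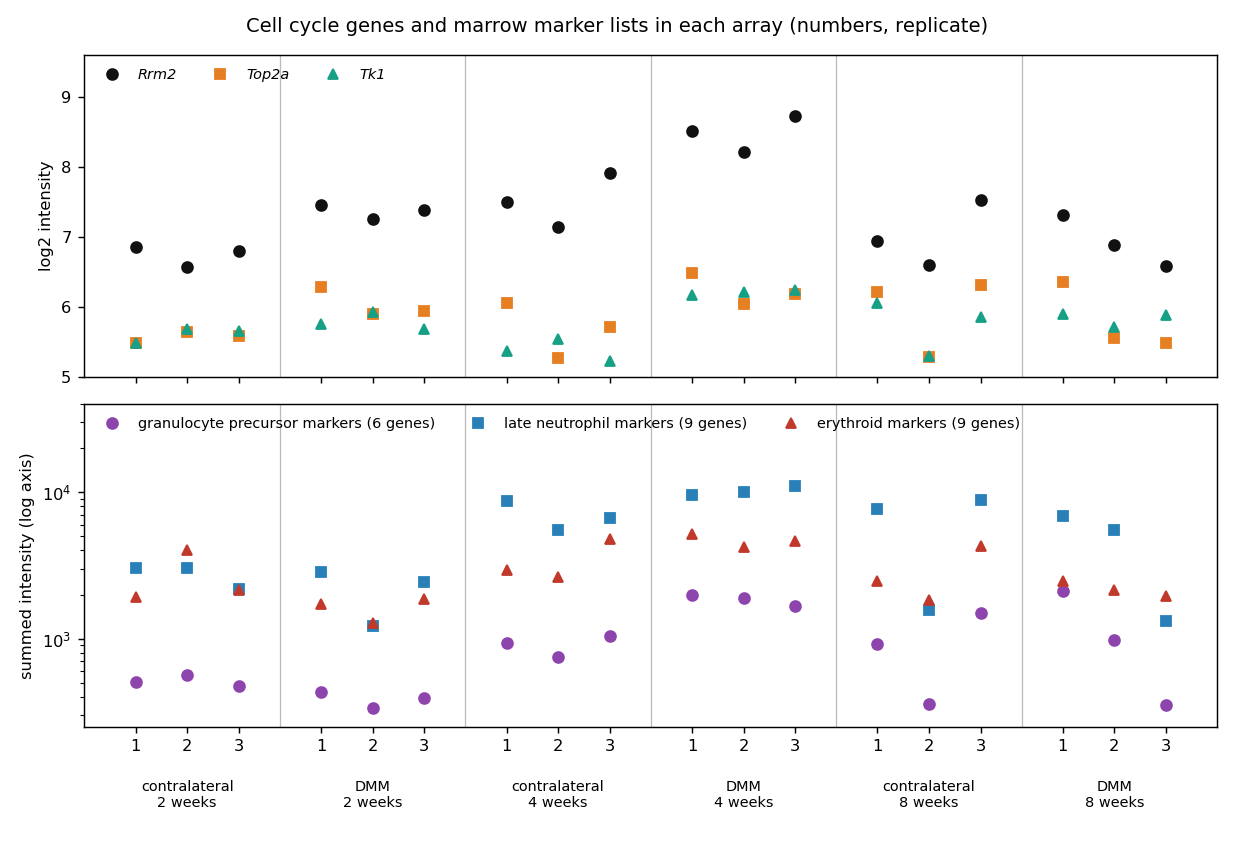
Upper panel, log2 intensity of *Rrm2*, *Top2a* and *Tk1* in each of the 18 arrays. Lower panel, summed intensity (log axis) of granulocyte precursor (6 genes), late neutrophil (9 genes) and erythroid (9 genes) markers in the same arrays. The 4-week DMM arrays stand high in both panels, and the 2-week DMM arrays stand above contralateral for *Rrm2* and below it for the granulocyte precursor sum. The 8-week arrays spread widely for *Rrm2* and for the granulocyte precursor and late neutrophil sums. The 8-week DMM erythroid sums lay closer together, at 1944 to 2491.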

How the data were processed

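Cartilage RNA was amplified in 2 rounds and hybridised to Illumina Mouse WG-6 v2.0 BeadChips. The authors deposited log2 intensities, quantile normalised with lumi (2.8.0) in R (2.15.0) per the submitters' processing notes, for 22999 probes that they had selected by a threshold not given in the sources used here. The log base was taken from the range of the values (4.62 to 14.67). A further table of unnormalised values was not used, because its 36 columns name no sample. Array number limits the precision: 3 per group. No 2 arrays held the same values.

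Each of the 13 comparisons was fitted with limma (3.58.1, R 4.3.3; lmFit and eBayes, Benjamini-Hochberg over all probes, threshold 0.05). Single-week and between-week comparisons used the 6 arrays concerned, and the changes of the DMM effect and the mean of the 3 weeks used all 18. The code was tested on simulated data. Gene names came from the platform annotation, which gave 18998 probes 1 gene, 6 several and 3995 none. A gene passed if any of its probes passed. Promoter windows and gene positions came from RefSeq tables (GRCm38.p6).

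Members and lists were chosen with earlier results of these data known, and none is independent support. Named are members that passed in any comparison, the largest rise and fall of a role group in a week, and anchors such as *Pcna*. Members named beyond these were chosen after their values were seen. Each result was refitted with other normalisations, variance models, probe choices and with each array left out (statmod 1.5.0 for the replicate block). Figures were drawn with matplotlib (3.10.9).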

Additional observations from a re-analysis of the deposited data

Results flagged for a closer look

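The groups of 3 members did not overlap at 2 of the weeks and did so in opposite directions, which 1.63% of all genes (188) and 2.91% of members did. *Mcm2* was higher in DMM at 4 weeks (0.44 ± 0.16) and lower at 8 weeks (-0.52 ± 0.18), a difference of 0.96 on the log2 scale between the weekly effects. *Cenpm* was lower at 2 weeks (-0.43 ± 0.14) and higher at 8 weeks (0.44 ± 0.17), which differ by 0.87. *Rfc1* was lower at 4 weeks (-0.22 ± 0.13) and higher at 8 weeks (0.32 ± 0.17), which differ by 0.54. The change of the DMM effect was tested across the 18 arrays by limma and did not pass for *Mcm2* (adjusted p = 0.489), *Cenpm* (0.178) or *Rfc1* (0.579).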

How the results depend on the processing

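Of 31 member values that passed, 596 refits kept 432 calls and turned 0 signs. Of 206 that did not, 21 of 3281 refits passed, and 178 turned the sign without passing. The count of members past the threshold at 4 weeks went from 2 to 1 in 1 fit of all 18 arrays or with the mean of a gene's probes. It was also 1 with brighter probes only, where the dim *Tk1* probe was left out and not refitted. The count became 4 with variances fitted robustly against intensity, and 0 to 1 with 1 array left out. The count at 2 weeks went from 3 to 1 to 4 with 1 array left out, at 8 weeks from 0 to 1 in the 18-array fit, and for operated knees from 2 to 4 weeks from 5 to 2 in that fit and 2 to 6 with 1 array left out. From 2 to 8 weeks 1 became 2 in the 18-array fit, with that variance fit or with array weights, and 0 to 2 with 1 array left out. From 4 to 8 weeks 1 became 0 with the mean of probes and 0 to 1 with 1 array left out. For the mean of the 3 weeks 15 became 9 with the mean of probes and 7 to 16 with 1 array left out. The mean of 2 and 4 weeks alone, added after seeing the data, gave 14. The causes were not tested.

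Whether arrays of the same number share mice could not be told from 3 arrays a group. Correlations of deviations between DMM and contralateral arrays were -0.102 to 0.135 for the same number and -0.0978 to 0.096 for different numbers. At 4 weeks the same-number values were 0.135, 0.0554 and 0.0684, and the highest of the others was 0.0258. With a replicate block, operated knees from 2 to 8 weeks gave 0 members and from 4 to 8 weeks 0, while 2 weeks gave 3, 4 weeks 3 (*Rrm2* added), 8 weeks 0, 2 to 4 weeks 6 and the mean of the 3 weeks 11. Another background correction, a selection by detection p and a slide block were not run, since the unnormalised columns name no sample and slides are not given.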
